A study of Mus musculus with 8 samples.

Results

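The untreated arm of the study was examined on its own, 4 of its 8 libraries. These were 2 RNA-Seq libraries and 2 H3K27me3 ChIP-Seq libraries of control mESCs (mouse embryonic stem cells), labelled control RNA replicates 1 and 2 and control H3K27me3 replicates 1 and 2. The cells carry GFP under the Oct4 promoter, grew without feeder cells in medium with LIF and 2 inhibitors (2i), and received no morphine but 0.9% NaCl, the vehicle, for 24 h. They are 1 cell line. The methods call the H3K27me3 samples biological replicates, but neither they nor the labels say whether the RNA replicates were separate cultures, and the spread between these may be technical. Of 44396 loci in the count table, 41254 had a strand and lay on chromosomes 1 to 19, X or Y, and every one of these was kept. The 5′ end of such a locus was the reference point, and a locus carried a peak when an H3K27me3 peak overlapped the 1 kb on either side of that end.

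H3K27me3, the trimethylation of lysine 27 of histone H3, is laid down by PRC2 (Polycomb repressive complex 2) and is bound by canonical PRC1 through its Cbx subunits. In embryonic stem cells the mark is known from the promoters of developmental genes, most of which lie in CpG islands, stretches where CpG dinucleotides are dense. Cells kept in 2i are held in the naive pluripotent state.

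The promoters of 5 genes show the kinds of 5′ end that the results turn on. Arpc5, which encodes a subunit of the actin-nucleating Arp2/3 complex, is a CpG-rich gene that was expressed and carried one of the strongest peaks. Mesp1, a regulator of early mesoderm, carried a peak and was nearly silent. Pou5f1, which encodes the pluripotency factor OCT4, was highly expressed without a peak. Hoxd10, a homeobox gene of the posterior body axis, was CpG-rich and nearly silent without a peak, and Alb, the gene of serum albumin, was CpG-poor and nearly silent without one. The 250 bases before the start of each gene are given 5′ to 3′ from RefSeq on GRCm38.p6, which has the coordinates of mm10, with every CG in capitals (CG reads the same on both strands). They lie at chr1:152766292-152766541 (Arpc5, plus strand), chr7:79793591-79793840 (Mesp1, minus), chr17:35505782-35506031 (Pou5f1, plus), chr2:74691641-74691890 (Hoxd10, plus) and chr5:90460620-90460869 (Alb, plus).
Arpc5: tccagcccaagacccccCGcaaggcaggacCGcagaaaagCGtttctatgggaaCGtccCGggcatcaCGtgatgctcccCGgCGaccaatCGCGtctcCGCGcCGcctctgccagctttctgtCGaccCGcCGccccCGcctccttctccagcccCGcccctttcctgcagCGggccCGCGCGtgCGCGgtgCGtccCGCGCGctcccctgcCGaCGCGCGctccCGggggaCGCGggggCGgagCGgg
Mesp1: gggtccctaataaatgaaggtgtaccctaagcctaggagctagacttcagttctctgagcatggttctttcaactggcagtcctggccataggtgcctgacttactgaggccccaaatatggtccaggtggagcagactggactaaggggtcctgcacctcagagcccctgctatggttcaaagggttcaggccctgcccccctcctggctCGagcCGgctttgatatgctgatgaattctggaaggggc
Pou5f1: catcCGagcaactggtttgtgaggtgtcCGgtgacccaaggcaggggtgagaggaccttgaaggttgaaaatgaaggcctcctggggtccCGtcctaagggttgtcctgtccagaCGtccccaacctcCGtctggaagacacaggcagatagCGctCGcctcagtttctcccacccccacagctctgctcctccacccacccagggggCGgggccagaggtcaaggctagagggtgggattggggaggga
Hoxd10: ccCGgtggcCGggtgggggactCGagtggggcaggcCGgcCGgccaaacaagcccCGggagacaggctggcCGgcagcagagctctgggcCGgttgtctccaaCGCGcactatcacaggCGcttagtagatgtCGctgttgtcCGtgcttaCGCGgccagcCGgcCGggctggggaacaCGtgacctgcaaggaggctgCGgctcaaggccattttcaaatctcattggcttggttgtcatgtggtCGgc
Alb: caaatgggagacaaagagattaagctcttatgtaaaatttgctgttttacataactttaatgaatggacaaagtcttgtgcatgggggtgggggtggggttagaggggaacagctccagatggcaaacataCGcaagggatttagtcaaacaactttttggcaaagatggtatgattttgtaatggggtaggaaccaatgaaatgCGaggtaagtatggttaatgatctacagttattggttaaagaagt

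Arpc5 held 37 CG and Hoxd10 held 20, Pou5f1 held 8, and Mesp1 and Alb held 2 each. Over the 32851 promoters of the RefSeq table, 92.1% held at least 1 CG in these 250 bases, with a median of 6 and quartiles of 2 and 16. To sort all loci, GC content and the ratio of observed to expected CpG were read over the 5′ end and 500 bp on either side. A locus was CpG-rich at a GC content of at least 50% and a ratio of at least 0.6, which held for 12554 loci, and the other 28700 were CpG-poor. Mesp1 was CpG-rich by this measure although its upstream bases hold few CG.

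The first question was which genes the untreated cells express and how firmly. The level of a locus was its CPM, the count scaled to the library total, divided by the exon length in kb. The libraries held 27820199 and 29531096 counts, so 3 counts on 1 kb of exon are a level of 0.108 in replicate 1 and 0.102 in replicate 2. At the median exon length of 1783 bp they are 0.0664 and 0.0626, and loci under 3 counts could not be told from silent ones. A level of 1 or more was reached in both libraries by 12448 loci, whose median was 9.22 in replicate 1 and 9.37 in replicate 2. No count in either library was found for 14942 loci (36.2%). With 1 locus per gene name, 11741 of 31078 (37.8%) were at a level of 1 in both. Between the 2 libraries, 78 of the 12448 loci at a level of 1 differed by over 2-fold (0.627%). Among the 5858 loci at a level of 10 in both, 9 differed by over 2-fold.

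The table mixes 15555 loci that the authors assembled from their reads with 25699 transcripts of the UCSC annotation that lie outside them. A level of 1 in both libraries was reached by 78.2% of the assembled loci and by 1.12% of the UCSC loci. CpG-rich 5′ ends made up 57.8% of the assembled and 13.9% of the UCSC loci. They made up 66.6% of the loci at a level of 1 and 3.70% of those without a count.

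The loci with the highest levels are given first. Hsp90ab1, which encodes a cytosolic HSP90 chaperone, stood at 2908 and 3025 in RNA replicates 1 and 2. Eef1a1 and Eef2, elongation factors of translation, stood at 1848 and 1734 and at 1285 and 1331. Rplp1, Rpl4 and Rpl8, which encode ribosomal proteins, ranged from 1698 to 2720 in replicate 1 and from 1765 to 2284 in replicate 2. Atp5b, a subunit of the mitochondrial ATP synthase, stood at 1391 and 1499. Rack1, a protein of the small ribosomal subunit, stood at 1354 and 1411 on a locus that includes the small nucleolar RNA Snord96a. AK187054, a short locus of 172 bp, stood at 1722 and 1492. None of the 10 carried a peak in either library. The 10 loci with most counts took 4.51% and 4.26% of all counts. Genes with near-identical copies are uncertain, since the sources do not say how reads with several alignments were counted. Gapdh and Ppia, which have many pseudogenes, stood at only 3.82 and 3.24 and at 4.01 and 3.24.

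The label of the cells was set against their markers. All 26 genes of the naive and general pluripotency list were matched, 25 were at a level of 1 in both libraries, and their medians were 61.1 and 59.5. Dppa5a stood at 834 and 711, Pou5f1 at 637 and 692, and Tdgf1, an EGF-CFC co-receptor of Nodal, at 366 and 358. Nanog stood at 194 and 193, Zfp42 at 175 and 179, and Esrrb, a nuclear receptor of the naive network, at 140 and 143. Sox2 was lower, at 103 and 91.7. Dppa3, a maternal factor that protects methylated DNA, was the gene under 1, at 0.879 and 0.869. Of the 10 genes of the primed list, those of the state that follows implantation, 5 were at a level of 1. Fgf5, which defines that state, stood at 0.258 and 0.0947, and Otx2 at 7.51 and 7.20.

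Markers of other cells are given beside the 37.8% of all gene names at a level of 1. Of CpG-poor gene names with a peak in neither library, 17.9% and 17.8% were at that level in RNA replicates 1 and 2. Of 10 fibroblast genes, of which 2 have a CpG-rich 5′ end, 8 were under 1 in both libraries and 2, Thy1 among them, were at a level of 1. The range over the fibroblast list was 0 to 4.16 in replicate 1 and 0 to 4.41 in replicate 2. The collagen genes Col1a1 and Col3a1, which define these cells, stood at 0.509 and 0.525 and at 0 in both. Of 10 trophoblast genes, 7 were under 1, with a range of 0 to 5.43 and 0 to 6.12, and Elf5, which defines that lineage, had no count. The 3 at a level of 1, near the share of all gene names, were Tfap2c at 5.43 and 4.91, Krt8 at 5.26 and 6.12 and Krt18 at 1.72 and 2.13. Of 8 matched genes of the 2-cell-like state, 5 were under 1 and 3 were at a level of 1, near that share, and Zscan4d stood at 1.73 and 1.80. A low level in such bulk libraries can be few cells with the RNA or little RNA in each, which cannot be told apart.

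The second question was where the mark lay. The authors called 10305 peaks in H3K27me3 replicate 1 and 13778 in replicate 2. The 10280 and 13749 of these on the main chromosomes had a median width of 2803 and 2808 bp, and none was wider than 8603 and 8642 bp. Each peak has a score, -10 times the log10 of its p-value. The lists give no reads per peak, and a locus without a peak may still bear the mark. Of these peaks, 34.6% and 27.1% lay at the 5′ end of a locus, with any part within 1 kb of it, a rule that a wider peak meets more easily. The peaks at a 5′ end were wider than the others, in part by this rule, with medians of 3455 and 3406 bp against 2562 and 2655 bp. Their scores were higher, with medians of 111 and 116 against 75.4 and 76.1. They were also richer in CpG, with a median ratio of 0.366 and 0.350 against 0.207 and 0.178.

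A peak within 1 kb of the 5′ end was found at 5325 loci in replicate 1 (12.9%) and at 5479 in replicate 2 (13.3%). Both libraries had one at 4440 loci (10.8%), a single library at 1924 and neither at 34890. The shared loci were 83.4% of those of replicate 1 and 81.0% of those of replicate 2. A peak in both libraries was found at 2470 CpG-rich loci (19.7%) and at 1970 CpG-poor loci (6.86%). Where both libraries had a peak, the median score was 123 and 132, and where a single library had one it was 72.0 in replicate 1 and 69.5 in replicate 2. Over the 4440 loci, which are not independent because neighbours share peaks, Spearman's correlation of the 2 scores was 0.797. By type of gene in GENCODE, with 1 locus per name, a peak in both libraries was found at 13.4% of 20033 protein-coding genes, 7.62% of 604 antisense genes, 5.89% of 1035 lincRNA genes and 29 of 968 miRNA genes. It was found at 12.3% of 300 processed transcripts and 10.9% of 101 processed pseudogenes. These types also differ in CpG content: 48.5% of the protein-coding, 25.5% of the antisense, 11.4% of the lincRNA and 6.71% of the miRNA genes were CpG-rich, as were 44.7% of the processed transcripts and 11.9% of the processed pseudogenes.

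The comparison at the centre is the level of loci with and without a peak. Over all loci the median level was 0.404 and 0.403 with a peak in both libraries and 0.0410 and 0.0402 with a peak in neither. On the log2(level + 0.1) scale the loci with a peak were higher by 1.84 ± 0.00467 (SD, n = 2 RNA libraries), and the share of loci at a level of 1 was higher by 6.08 percentage points ± 0.265 (SD, n = 2). Both differences depend on the setting. The median without a peak is under the level of 3 counts at the median exon length, and the log2 difference was 3.03 with a pseudocount of 0.01 and 0.43 with 1. With only loci of at least 10 counts, a filter on the level that is compared, the 2 differences turned to -1.85 and -16.2 percentage points. The share difference turned to -9.69 for peaks over the 5′ base and to -10.2 by peak midpoint. The order also turned higher up the scale. A level of 10 was reached by 8.99% and 9.03% of the loci with a peak against 15.5% and 15.6% of those without, and a level of 100 by 0.338% in each library against 1.69%. No test was run, because loci are not replicates and 2 libraries cannot give a two-sided exact p below 0.5.

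Within CpG-rich loci the direction was the opposite. Their median was 1.13 and 1.12 with a peak in both libraries and 7.62 and 7.69 with a peak in neither, a difference of -2.66 ± 0.0171 (SD, n = 2) on the log2 scale. A level of 1 was reached by 52.4% and 51.9% of those with a peak and by 72.2% and 72.0% of those without, and a level of 10 by 13.7% and 13.8% against 44.6% and 44.8%. Loci with no count were about as frequent in both classes, at 4.74% and 5.59% with a peak and 6.18% and 6.22% without. Within CpG-poor loci the median was 0.0963 and 0.0901 with a peak and 0 without, and a fold against a median of 0 would be set by the pseudocount. There 57.7% and 57.5% of the loci without a peak had no count, against 26.9% and 26.5% of those with one. The CpG-poor loci with a peak were also longer, with a median exon length of 2324 bp against 1074 bp, and the part of length was not tested. The direction also differed between kinds of locus, although the assembled loci were built from RNA reads and so are selected for the level that is compared. The assembled loci gave medians of 3.40 and 3.36 with a peak and 6.67 and 6.74 without, and the UCSC loci gave 0.0946 and 0.0896 with a peak and 0 without. Among CpG-rich loci, the assembled ones stood at 4.07 and 4.10 with a peak and 13.1 and 13.3 without, but the UCSC ones were higher with a peak, at 0.192 and 0.172 against 0.0926 and 0.0881. Among CpG-poor loci, the assembled ones stood at 1.68 and 1.67 with a peak and 2.08 and 2.07 without. For protein-coding genes with 1 locus each, the log2 difference was -0.47 ± 0.0220 (SD, n = 2), and the sign of the pooled value depends on which loci enter it.

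**Figure D1:**
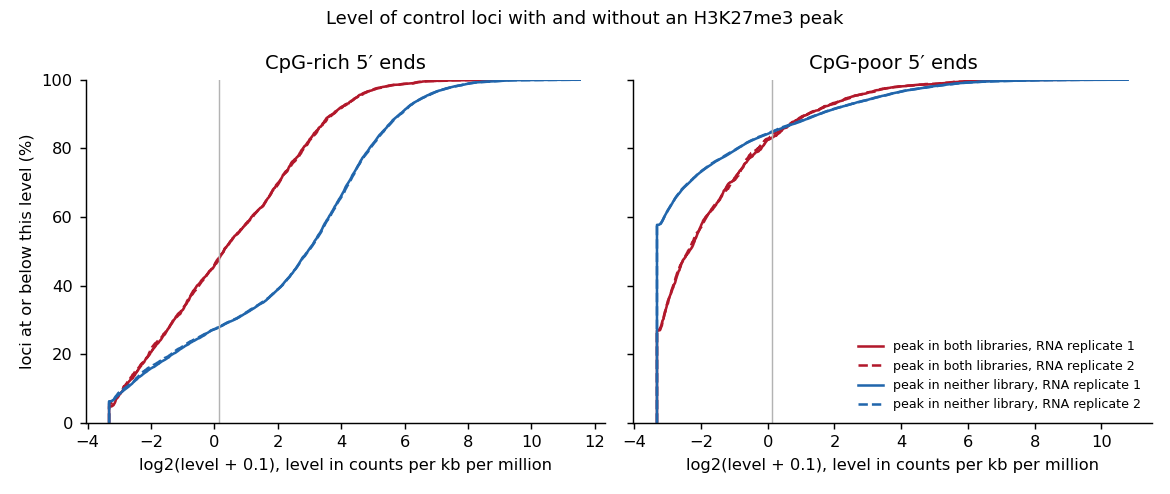
Cumulative share of loci (vertical axis, percent) at or below each level (horizontal axis, log2 of CPM per kb + 0.1) for CpG-rich loci (left) and CpG-poor loci (right), with a peak in both H3K27me3 libraries (red) or in neither (blue), solid for RNA replicate 1 and dashed for replicate 2. The grey line marks a level of 1. In the left panel the red curves start slightly below the blue at no count and lie above them at a level of 1, with medians of 1.13 and 1.12 against 7.62 and 7.69, and in the right panel they start lower because fewer loci with a peak have no count.

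Ranking loci by level showed that the share with a peak was highest in the middle and low at both ends. Among CpG-rich loci with no count in either RNA library, 15.2% of 553 had a peak in both H3K27me3 libraries. The share was 24.6% above 0 and up to a level of 0.1, reached 37.4% between 0.5 and 1, was 34.9% between 1 and 2, and fell to 20.7% between 4 and 8, 7.94% between 16 and 32 and 2.71% of 332 loci above 128. Each H3K27me3 library gave the same shape, with 42.8% and 42.2% between 0.5 and 1, 17.7% and 18.8% at no count and 2.71% in each above 128. The 553 loci without a count had a median CpG ratio of 0.734 against 0.764 between 0.5 and 1, and the part of CpG density in the shares was not tested. CpG-poor loci followed the same course at a lower height, from 2.88% at no count to 14.0% between 0.25 and 0.5 and 1.03% above 128. With 1 locus per gene name, a peak in both libraries was found at 3232 of 31078 loci (10.4%) and at 1970 of 10859 CpG-rich loci (18.1%). These CpG-rich genes gave 17.4% at no count, 36.8% between 0.5 and 1 and 2.73% above 128.

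**Figure D2:**
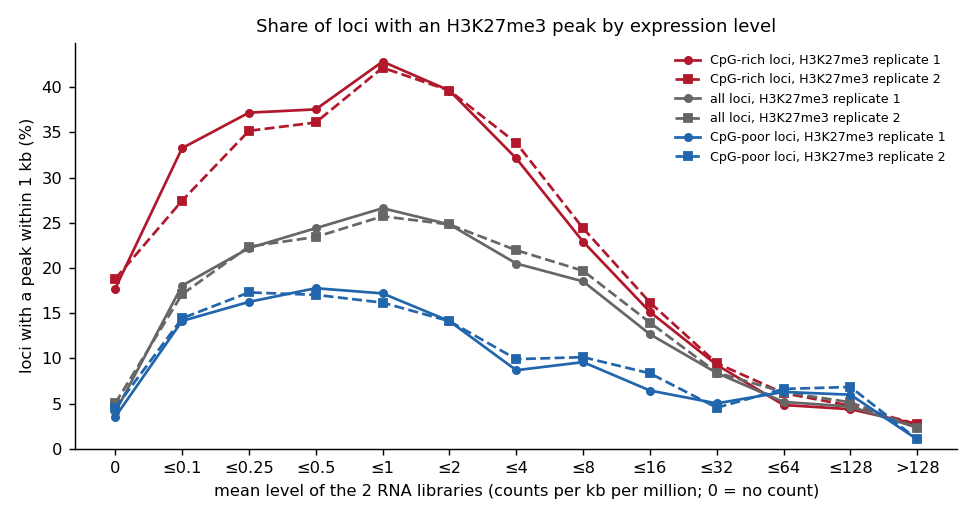
Share of loci with a peak within 1 kb of the 5′ end (vertical axis, percent) in bins of the mean level of the 2 RNA libraries (horizontal axis, upper bound of each bin), for CpG-rich (red), all (grey) and CpG-poor loci (blue), with circles and solid lines for H3K27me3 replicate 1 and squares and dashed lines for replicate 2. The CpG-rich curves rise from 17.7% and 18.8% at no count to 42.8% and 42.2% between 0.5 and 1 and fall to 2.71% above 128.

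The position of the peaks along the locus also moved with the level. The 553 CpG-rich loci without a count were covered by a peak at the 5′ end in 13.2% and 13.7% of cases, with a maximum of 15.6% and 17.0% downstream. CpG-rich loci with counts but under a level of 1 were covered by a peak at the 5′ end itself in 25.2% and 21.6% of cases, and coverage was highest 1000 and 1250 bp downstream, at 32.1% and 29.1%. Loci between 1 and 10 were covered at the 5′ end in 10.3% and 10.2% and 1500 bp downstream in 22.4% and 22.3%, so the start lay in a dip at 0.46 of the maximum. Between 10 and 100 the highest coverage lay upstream, 6.62% at 2000 bp and 7.90% at 2250 bp, with 2.18% and 2.08% at the 5′ end. At 3000 bp, coverage upstream was 4.12 and 4.27 times that downstream in this class, but 0.427 and 0.465 times in the class with counts but under 1. The 475 loci at 100 or more were covered at the 5′ end in 0.211% in each library. Of all loci, 48.2% have the 5′ end of another locus within 2 kb, and the part of such neighbours in the upstream coverage was not tested.

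**Figure D3:**
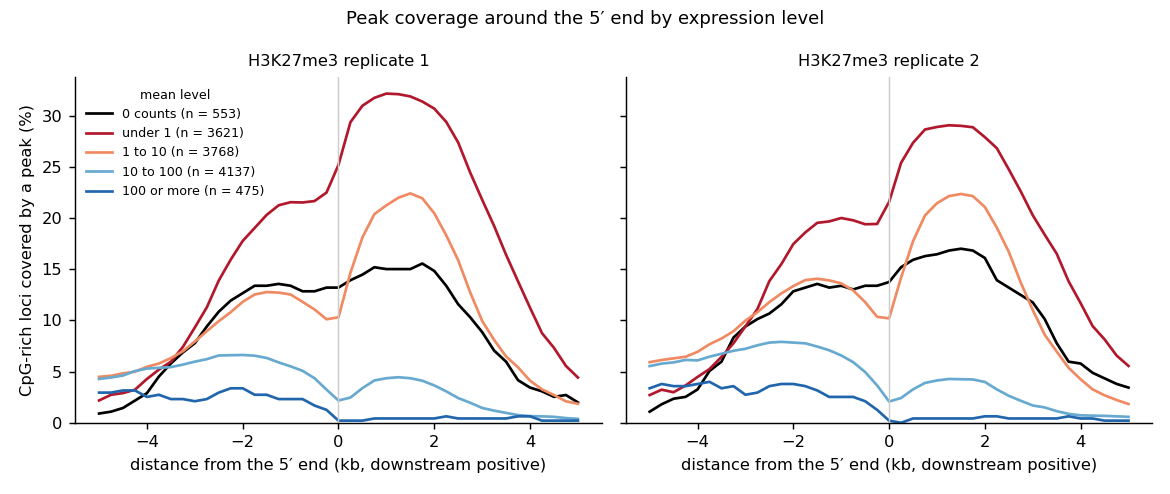
Share of CpG-rich loci covered by a peak (vertical axis, percent) at distances from 5 kb upstream to 5 kb downstream of the 5′ end (horizontal axis), for 5 classes of mean level, with H3K27me3 replicate 1 on the left and replicate 2 on the right. Loci with counts but under a level of 1 (red) rise to 32.1% and 29.1% downstream of the 5′ end, and loci at 10 to 100 (light blue) are highest upstream and fall to 2.18% and 2.08% at the 5′ end.

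Among CpG-rich loci, levels also differed with the side of the 5′ end on which the peak lay. In H3K27me3 replicate 1, 1464 CpG-rich loci had a peak over the 5′ end base, with a median level of 0.375 and 0.380 in the 2 RNA libraries. A peak only downstream within 1 kb was found at 872 loci, with medians of 2.06 and 2.06, and a peak only upstream at 524 loci, with medians of 4.91 and 4.84. CpG-rich loci with no peak in that library had medians of 7.18 and 7.25. Replicate 2 gave the same order, with medians in RNA replicate 1 of 0.452 over the 5′ end, 2.07 downstream, 5.51 upstream and 6.90 without a peak. CpG-poor loci did not keep this order. Those without a peak had a median of 0, and those with a peak only upstream stood at 0.172 and 0.216 for replicate 1 but at 0.0480 and 0.0439 for replicate 2, against 0.0781 and 0.0792 and 0.0714 and 0.0699 over the 5′ end.

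Levels were not lower at stronger peaks. The loci with a peak in both libraries were sorted by the mean of the 2 scores into 4 groups of like size. Among CpG-rich loci the lowest group had medians of 0.921 and 0.909, and the highest group, with scores from 210 up, had medians of 2.03 and 2.07. A level of 1 was reached by 48.7% and 48.1% of the lowest and by 61.8% and 61.5% of the highest group. CpG-poor loci went the same way, from 0.0597 and 0.0466 to 0.149 and 0.156.

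The loci with the highest scores held both silent and active genes. The highest belonged to Asmt, the gene of the last enzyme of melatonin synthesis, on chromosome X from 170672644 to 170678054, with scores of 1033 and 1293 and no count in either RNA library. Arpc5, on chromosome 1 from 152766542 to 152775580, had scores of 734 and 842 and levels of 45.0 and 42.9. Epas1, which encodes the hypoxia factor HIF-2α, had scores of 757 and 729 and levels of 19.7 and 18.1. Gab1, a docking protein of receptor tyrosine kinases, had scores of 622 and 788 and levels of 126 in each library. Dhx40, a DEAH-box helicase, stood at 24.8 and 25.2, and Baiap2, an adaptor of the actin cytoskeleton, at 6.77 and 7.34. Tc2n had scores of 635 and 733 and stood at 0.0340 and 0.0192. A single peak with scores of 705 and 852 lay within 1 kb of both Rrs1, a ribosome biogenesis factor at 40.6 and 38.9, and Adhfe1, a mitochondrial dehydrogenase at 1.37 and 1.49. The list was completed by a UCSC transcript beside Baiap2 under the same peak. Of these 10 loci, 6 stood at a level above 5 in both libraries, and of all 41254 loci 8162 were at a level of 5 or more in both.

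The highest levels among loci with a peak in both libraries are given next. Mt2, a metallothionein on chromosome 8 from 94172618 to 94173567, stood at 653 and 598 with scores of 160 and 115. Rpl26, a ribosomal protein gene whose locus includes Gm15772, stood at 554 and 625 with scores of 104 and 68.0. Kars, the lysyl-tRNA synthetase, stood at 275 and 274 with scores of 299 and 410. Ckb, the brain type creatine kinase, stood at 214 and 223, and Tuba4a, an alpha tubulin, at 167 and 174. Polr2f, a subunit shared by the RNA polymerases, stood at 161 and 165, and Uck2, a pyrimidine ribonucleoside kinase, at 126 and 134. The miRNA locus Mir6236 was higher, at 1170 and 611, and AK144265 stood at 328 and 171, but both differed by nearly 2-fold between the libraries and are short, at 123 and 402 bp.

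The gene lists are given by role, with the share of all gene names that carried a peak in both libraries (10.4%, and 18.1% of CpG-rich ones) as the background. The genes of the enzyme that writes the mark were expressed and had no peak. All 6 genes of the PRC2 core were at a level of 1, with medians of 114 and 110, and none had a peak in either library. A peak in both libraries was also rare among all CpG-rich gene names at such levels, at 4.19% between 64 and 128 and 2.73% above 128. Ezh2, the catalytic subunit, stood at 71.5 and 72.7, Eed, which reads the mark, at 118 and 115, and Suz12, a scaffold of the complex, at 111 and 106. Ezh1, the other catalytic subunit, was the lowest at 6.32 and 6.59. The nearest peak to any of the 6 genes was 14.9 kb away in replicate 1 and 17.3 kb in replicate 2.

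Among accessory subunits of PRC2, 1 of 6 had a peak in both libraries and 1 in a single library. Phf19, a Tudor protein of the variant PRC2.1, had scores of 122 and 147 and stood at 6.84 and 6.83. Epop, also of PRC2.1, had a peak of score 87.2 in replicate 1 alone and stood at 110 and 117. Jarid2, of PRC2.2, stood at 93.4 and 90.02 without a peak.

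Of 20 PRC1 genes, 5 had a peak in both libraries and 2 in a single library, and 19 of the 20 are CpG-rich. Cbx2, a chromodomain subunit that binds the mark, had scores of 331 and 424 and stood at 8.66 and 8.75. Pcgf2, the core of a canonical PRC1, had scores of 195 and 186 and stood at 40.8 and 39.4. Pcgf3, of a variant PRC1, stood at 13.4 and 12.9, Bcor, a partner of Pcgf1, at 4.44 and 4.41, and Phc2, a polyhomeotic subunit, at 3.04 and 3.38. Rnf2, the main ubiquitin ligase of PRC1, stood at 50.6 and 53.3 with a peak in replicate 2 alone of score 53.8. Cbx7, the Cbx protein best known from embryonic stem cells, stood at 31.0 and 33.7 without a peak. Over PRC2 and PRC1 together, 6 of 32 genes had a peak in both libraries and 31 of 32 were at a level of 1.

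Of the enzymes that remove H3K27 methylation or methylate H3K4, 1 of 8 had a peak in both libraries and all 8 were at a level of 1. This was Kmt2c, an H3K4 methyltransferase of enhancers, with scores of 226 and 295 and levels of 5.74 and 5.25. The demethylases Kdm6a and Kdm6b stood at 13.0 and 12.2 and at 11.6 and 10.6 without a peak within 1 kb. Within 3 kb, 3 of the 8 genes had a peak in both libraries, Kdm6b among them, whose nearest peaks lay 2413 and 2551 bp away.

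Of all loci between levels of 32 and 64, 4.64% had a peak in both libraries, as did 4.52% between 64 and 128. None of the 26 pluripotency genes carried a peak within 1 kb, in either library. Within 3 kb, 2 of them did in both libraries: Klf4, whose nearest peaks lay 1562 and 1187 bp away, and Dppa3, at 2267 and 1983 bp. Of the primed genes, Dnmt3a and Dnmt3b, the de novo DNA methyltransferases, had peaks in both libraries and stood at 15.2 and 15.1 and at 15.9 and 16.2. Pou3f1, a POU factor of the epiblast and nervous system, had a peak in replicate 2 alone and stood at 0.334 and 0.304.

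Regulators of the later lineages were low, and few had a peak. Of 83 genes of the Hox clusters and the endoderm, mesoderm and neural lists, 71 were under 1 in both RNA libraries. A level of 1 in both was reached by 10 of the 83, beside 37.8% of all gene names, and 2 had a peak in both H3K27me3 libraries (2.41%). Of these 83, 54 were CpG-rich. All 39 Hox genes lacked a peak in either library, 23 of them with a CpG-rich 5′ end. The methods used a Hox region as a positive control for H3K27me3 in ChIP-qPCR before sequencing. A missing peak call here does not show that the mark is absent. The nearest peak to a Hox gene was 20.9 kb away in replicate 1 and 36.3 kb in replicate 2, with medians of 136 and 133 kb. Hoxd10 stood at 0.0777 and 0.0183, from 4 counts and 1 count. Hoxc13, the most posterior gene of its cluster, was the highest at 4.59 and 4.76, followed by its neighbour Hoxc12 at 3.89 and 3.37, and both overlap no peak.

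The 2 genes with a peak are both on the mesoderm list, where the other 14 of 16, among them Eomes, Gsc and Tbx6 of early mesoderm, had none. Mesp1 had scores of 76.0 and 71.2 with 1 count and 0 counts. Mixl1, a homeobox gene of the primitive streak, had scores of 73.5 and 53.7 and stood at 0.251 and 0.133. Both scores of each gene lie under 100, so with a minimum score of 100 no gene of the mesoderm list had a peak in both libraries. None of the 12 endoderm and 16 neural regulators had a peak. Gata6 and Gata4, of primitive endoderm, stood at 1.65 and 1.43 and at 1.54 and 1.502, and Sox1, of early neural cells, at 4.06 and 3.72.

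Of 18 developmental ligands, 12 were under 1 in both RNA libraries and 6 were at a level of 1, near the 37.8% of all gene names. The 2 with a peak in both H3K27me3 libraries (11.1%, near the 10.4% of all gene names) were expressed. Lefty2, an inhibitor of Nodal, stood at 40.7 and 40.9 with scores of 204 and 217. Bmp4, a ligand that sustains self-renewal with LIF, stood at 32.7 and 34.6 with scores of 237 and 208. Both have CpG-poor 5′ ends. Nodal itself and Lefty1 stood at 38.0 and 39.9 and at 21.4 and 22.0 without a peak.

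Of 15 germline genes, 4 had a peak in both libraries and 1 in a single library, and 11 were at a level of 1. Tex19.1, which protects germ cells from transposons, had scores of 137 and 146 and stood at 70.2 and 69.1. Stk31 stood at 6.54 and 6.39, Hormad1, a protein of the meiotic chromosome axis, at 4.37 and 4.11, and Mov10l1, a helicase of the piRNA pathway, at 4.50 and 4.19. Dazl, an RNA-binding protein of germ cells, stood at 30.4 in each library without a peak. These shares rest on few genes.

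Of 20 matched terminal tissue genes, all with a CpG-poor 5′ end, 15 were under 1 and 5 at a level of 1. Of CpG-poor gene names with a peak in neither library, 17.9% and 17.8% were at that level in the 2 RNA libraries. Of the 20 genes, 1 had a peak in both libraries, near the 6.24% of all CpG-poor gene names. This was Prm1, a sperm protamine, with scores of 183 and 293, 2 counts in RNA replicate 1 and none in replicate 2. Alb had 1 count in each library. Of 1119 olfactory receptor genes, 1056 had no count in either library and 7 (0.626%) had a peak in both, and of 316 vomeronasal receptor genes 290 had no count and 2 (0.633%) had a peak in both. Of 18 housekeeping genes, all at a level of 1, B2m, the light chain of class I MHC, was the one with a peak in both libraries, and it stood at 22.8 and 23.0. Single genes with a peak in both libraries were found among the fibroblast markers (Thy1, at 3.58 and 3.94), the trophoblast markers (Krt7, at 0.113 and 0.0854) and the 2-cell-like genes (Tcstv1, at 0.123 and 0.0773).

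**Figure D4:**
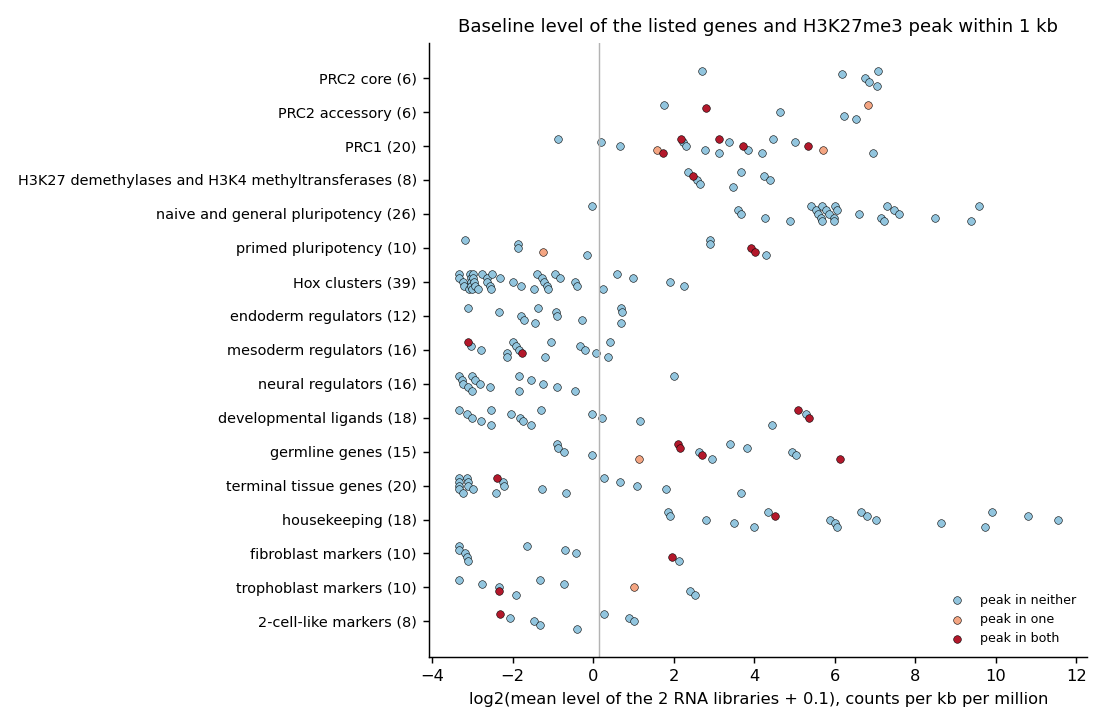
Level of each listed gene (horizontal axis, log2 of the mean level of the 2 RNA libraries + 0.1), 1 row per list with its number of genes, coloured by whether a peak lay within 1 kb of the 5′ end in neither (blue), one (orange) or both (red) H3K27me3 libraries. The grey line marks a level of 1. The 26 pluripotency genes are all blue with 25 to the right of the line, the 39 Hox genes are all blue and mostly to the left, and 5 of 20 PRC1 genes and 4 of 15 germline genes are red.

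Chromosomes differed more in peaks than in loci with a peak. Chromosome 11 held 8.84 and 11.8 peaks per Mb in the 2 libraries and chromosome 8 held 7.16 and 10.4, while the other 17 autosomes ranged from 3.08 to 4.69 in replicate 1 and from 4.13 to 5.65 in replicate 2. The share of loci with a peak in both libraries was 12.7% on chromosome 11 and 11.6% on chromosome 8, inside the range of 7.99% to 13.7% of the other autosomes. These 2 chromosomes also had high shares of loci at a level of 1, 41.0% and 39.3%, beside 39.6% on chromosome 19 and 24.2% as the lowest. CpG-rich loci made up 40.8% on chromosome 11 and 39.1% on chromosome 8, against 24.1% to 37.3% on the other autosomes. Chromosome X held 0.824 and 1.07 peaks per Mb, and 5.28% of its loci had a peak in both libraries, although 17.1% of its CpG-rich loci did, inside the autosomal range of 16.2% to 27.3%. On chromosome Y none of 528 loci had a peak in both H3K27me3 libraries, and none had a level of 1 in both RNA libraries.

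**Figure D5:**
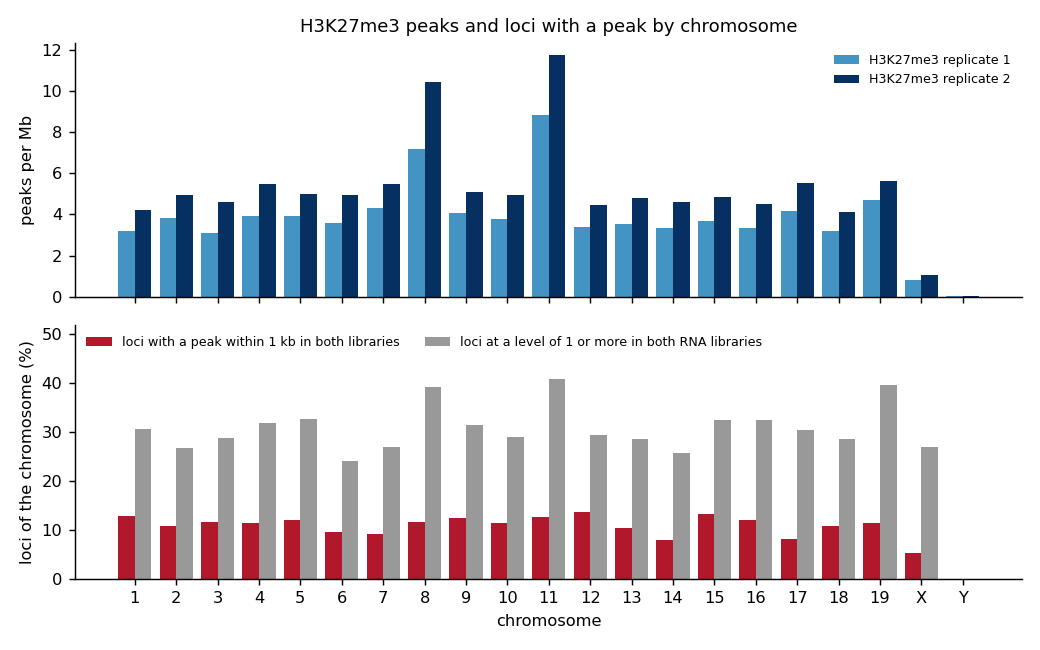
Upper panel, peaks per Mb of chromosome (vertical axis) in H3K27me3 replicates 1 (light) and 2 (dark). Lower panel, share of the loci of each chromosome (vertical axis, percent) with a peak within 1 kb of the 5′ end in both libraries (red) and at a level of 1 or more in both RNA libraries (grey). Chromosomes 8 and 11 stand above the other autosomes in the upper panel and not in the red bars of the lower. The share on X is 5.28%, and on Y none of the loci has a peak in both libraries.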

How the data were processed

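Poly(A) RNA was sequenced from 2 control samples as stranded libraries, and H3K27me3 ChIP-Seq was done on 2 control samples. Per the methods and the submitters' processing notes, the authors trimmed reads with Trim Galore 0.6.2, aligned to mm10 with Bowtie2 2.3.5.1 (ChIP) or HISAT2 2.1.0 (RNA), assembled loci with StringTie 1.3.6 on a UCSC annotation and deposited raw counts per locus from featureCounts 1.6.4, not normalized. Whether counting used strand is not given in the sources used here, so overlapping loci are uncertain. The authors called peaks with MACS separately per library (p-value limit 1e-05), and the deposited score is -10 times its log10. The control given to the caller is not stated, and labels and methods name different antibody suppliers.

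Here, levels were CPM per kb of exon (TMM by edgeR 4.0.16 in R 4.3.3 as an alternative), the log2 scale used a pseudocount of 0.1, and a peak had to overlap the 1000 bp on either side of the 5′ end by 1 bp (Python 3.11.15, numpy 2.4.6, pandas 2.3.3, scipy 1.17.1). Overlap, midpoint, level and CpG steps were tested on 2000 simulated loci, and 4 of 4 recovered the known answers. Loci without a strand (2885) or off the main chromosomes (257) have no values here. No test was run. Named genes are all members of 19 gene lists, the 10 named loci highest in level, in peak score and in level with a peak, and the 5 in either direction that differ most between the RNA libraries with at least 100 counts in one of them. For a gene with several loci, the assembled one, then the longest, was used. Members and lists were chosen with earlier results of these data known. Some loci that the rule names are not reported here. Morphine libraries were not used. The alternatives were other pseudocounts, scalings, levels, windows, peak thresholds and sets of loci and leaving out each library.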

Additional observations from a re-analysis of the deposited data

How the results depend on the processing

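No test was run, so each alternative is read by direction and size. No paired analysis was possible because loci with and without a peak were compared within the same libraries. There were no groups of samples to pair. The alternatives on the kind or length of loci, on protein-coding genes, on 1 locus per gene name and those for the rise in peak share with level and for the gene lists were chosen after seeing the data. Depth limits the levels near 3 counts. Peak calls of Hox, endoderm, neural and PRC2 core genes stayed at 0 under every window and peak threshold tried. Counts of other lists moved: over the 5′ base and by midpoint, PRC1 went from 5 genes to 2 and 1, germline from 4 to 2 and 1, primed from 2 to 0 and 0 and the list of Kmt2c from 1 to 0 and 0 (to 3 within 3 kb), and ligands went from 2 to 0 by midpoint. Without H3K27me3 replicate 1, PRC1 had 7.

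The log2 level difference of 1.84 reversed with at least 10 counts per locus (-1.85) and in CpG-rich (-2.66), assembled (-0.97), protein-coding (-0.47), CpG-rich 1-per-name (-2.17) and CpG-rich assembled loci (-1.67). It moved to 3.03 and 0.43 with pseudocounts of 0.01 and 1, 2.50 in TPM, 0.74 for peaks over the 5′ base, 0.59 for peak midpoints, 1.57 and 1.89 in windows of 500 bp and 3 kb, 1.59 for a peak in either library, 2.03 at a score of 100, 1.88 with equal numbers of peaks, 1.89 for named loci, 2.41 with no other 5′ end within 2 kb, 1.81 without chromosomes 8 and 11, 0.95 in CpG-poor and 0.94 in UCSC loci (both against a median of 0, and so set by the pseudocount), 2.55 in 1-per-name and 1.11 in loci of at least 200 bp. Leaving out each library in turn gave 1.65 to 1.84.

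The difference of 6.08 percentage points in loci at a level of 1 reversed with at least 10 counts (-16.2), at a level of 5 (-4.10), for peaks over the 5′ base (-9.69), for midpoints (-10.2) and in CpG-rich (-19.9), CpG-rich 1-per-name (-16.2) and CpG-rich assembled loci (-8.54). It moved to 14.9 in TPM, 2.54 and 7.85 in windows of 500 bp and 3 kb, 3.79 for either library, 10.8 at a score of 100, 6.96 with equal numbers of peaks, 6.86 for named loci, 17.0 with no other 5′ end within 2 kb, 5.30 without chromosomes 8 and 11, 1.45 in CpG-poor, 0.593 in assembled, 1.79 in UCSC, 11.1 in 1-per-name, 1.28 in loci of at least 200 bp and 1.31 in protein-coding genes. Leaving out each library gave 4.22 to 6.27.

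The 4440 loci with a peak became 2460 over the 5′ base, 1466 by midpoint, 2469 at a score of 100, 2190 with no other 5′ end within 2 kb, 1923 assembled, 2517 UCSC and 2693 protein-coding, and 5325 to 5479 when either library was left out. The 12448 loci at a level of 1 became 8162 at a level of 5 and 287 in UCSC loci. The share with a peak was 18.5 points higher at a level of 0.5 to 1 than at no count. This was 10.2 over the 5′ base, 5.82 by midpoint, 17.0 in a window of 500 bp, 24.8 for either library, 10.6 at a score of 100, 22.2 in CpG-rich, 9.92 in CpG-poor and 16.5 in assembled loci, and 20.7 to 22.6 when either H3K27me3 library was left out.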

Other observations

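Some values belong to no comparison. The 2885 loci without a strand held 1.88% and 1.43% of the counts, and loci of the mitochondrial genome held 1.79% and 1.596%. On sequences other than the main chromosomes there were 25 and 29 peaks.

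A few loci with at least 100 counts in a library differed strongly between the RNA libraries. Rpl23a, a ribosomal protein gene on a locus with Snord4a and Snord42b, stood at 5.91 in replicate 1 and 44.3 in replicate 2, and Rnaset2b with Gm1604b at 0.164 and 1.96. Mrps36 stood at 2.81 and 5.91, AB339900 with AB339872 at 7.53 and 13.1, and Dnah1 at 0.170 and 0.287. In the other direction, a locus of 959 bp on chromosome 14 that carries the name Ubb stood at 17.0 and 0.742. No GENCODE gene of that name overlaps it on its strand. BC069931 stood at 12.6 and 1.61, and Erdr1 with Mid1 at 4.57 and 0.724. AV051173 stood at 5.73 and 0.972, and AK017092 at 11.4 and 1.99.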
